A study of Mus musculus with 9 samples.

Results

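The tubulin, kinesin and dynein genes described here encode the subunits of microtubules and the motors that walk along them. They were chosen by symbol, as genes with a probe annotated to exactly 1 gene whose name marks it as an alpha, beta or gamma tubulin or gamma tubulin complex protein, a kinesin motor or kinesin light chain, a cytoplasmic dynein chain, a Dynl light chain, an axonemal dynein heavy chain, a Dnal light chain or a dynactin subunit. The rule itself used no measured value, but it was chosen with earlier results of these data known. This gave 47 genes with 63 probes, of 7117 genes with 9604 such probes on an array of 16128 probes. The kinesin motors made up 20 of them, the beta tubulins and the Dynl light chains 6 each, the cytoplasmic dynein chains 4, dynactin 3, the gamma tubulin complex, the kinesin light chains and the axonemal heavy chains 2 each, and alpha tubulin (Tuba1b) and the Dnal light chains (Dnal4) 1 each.

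The arrays were 2-colour spotted cDNA arrays of total RNA from whole testis of juvenile mice, on which Spo11-/- RNA in one dye competed with wild-type RNA in the other for each spot. There were 4 arrays of mice aged 15 days and 5 of mice aged 12 days, each with RNA of 1 knockout and 1 wild-type sample. At 15 days the knockout was always the Cy3 sample. At 12 days it carried Cy5 on replicates 1, 4 and 5 and Cy3 on replicates 2 and 3. The strain and the kind of Spo11 allele were not given in the sources used here. The replicate numbers follow the order of deposit.

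Spo11 encodes the enzyme that makes the DNA breaks with which meiotic recombination begins, and spermatocytes without it are known to arrest in meiotic prophase. Microtubules are polymers of alpha and beta tubulin that grow from gamma tubulin complexes. Kinesins mostly carry cargo towards their growing ends or take microtubules apart, and cytoplasmic dynein with its cofactor dynactin carries cargo the other way. In the testis the same proteins build meiotic spindles, move telomeres along the nuclear envelope during prophase, and later form the sperm tail, whose beating is driven by axonemal dyneins.

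Values are log2 ratios between the 2 dyes as deposited, so 0 means equal signal and a difference of 1 is 2-fold. Their direction is not settled. If the ratio is Cy5 over Cy3, a 15-day value below 0 means higher in the knockout. If it is knockout over wild type, the same value means lower in the knockout. Arrays of the same dye orientation from the 2 ages correlated below 0 over all probes (r between -0.38 and -0.33 for 12-day replicate 3 and between -0.25 and -0.11 for replicate 2 with the 15-day arrays), whereas the 15-day arrays correlated with each other at 0.38 to 0.60. Among the 12-day arrays, the 6 pairs of opposite dye orientation correlated at 0.00 to 0.29, not below 0, and the 4 pairs of the same orientation at -0.13 to 0.45, so those arrays do not settle the direction either. The 15-day values are therefore described as above or below 0, with no direction, and 12-day estimates as knockout over wild type on the assumption that each ratio is Cy5 over Cy3. Spo11 itself had no annotated probe with which to check the labels, and a ratio holds no level with which the tissue could be checked. Each array gave values for 11628 to 14724 probes, with an SD of 0.21 to 0.47, and precision is limited by how few arrays there were. In whole testis, fewer cells of a type and less RNA per cell cannot be told apart. At 15 days the knockout was always in Cy3, so a dye effect on a spot and a knockout effect cannot be told apart either.

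At 15 days, 8 of the 46 genes that could be tested differed from 0 (limma, Benjamini-Hochberg adjusted p under 0.05 over all 12198 features), 2 above 0 and 6 below. Dynlt1b, a light chain through which dynein holds cargo, lay farthest from 0 at a 2.68-fold ratio, and Dync1li2, a light intermediate chain of the same motor, followed at 1.64-fold. The kinesins Kif24, Kif9 and Kif2c and the dynactin subunit Dctn5 lay below 0 by 1.30-fold to 1.43-fold, and the kinesin Kif1b and the beta tubulin pseudogene Tubb2a-ps2 lay above 0 by 1.37-fold and 1.38-fold. Among all genes tested, 4.04% were called above 0 and 7.2% below, of 6958. The remaining gene, Dynlrb1, had no value at 15 days. The median over the 46 genes was -0.11, beside -0.02 over all genes.

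With 3 arrays fewer genes were called. Without 15-day replicate 1, 2, 3 or 4 the counts were 3, 2, 2 and 6 genes, while the calls over all features went from 1515 to 711, 586, 357 and 1021. Of the 8 genes only Dynlt1b and Dync1li2 stayed past the threshold in all 4 of these fits, although Tubb2a-ps2 kept a log2 ratio of 0.43 to 0.52 and Kif1b one of 0.41 to 0.53. When both ages were fitted together with a shared dye term, 35 genes could be tested, without Kif1b, and 5 were called, with 763 of 9851 features in all. These were Dynlt1b, Dync1li2, Kif24 and Tubb2a-ps2 from the 8, and Dynlt3 (0.45, adjusted p = 0.0479). With the 15-day sign turned in that fit, 0 of the 35 and 17 of all features were called by limma (1458 features at an unadjusted p under 0.05), with Dynlt1b at -1.13 and Dync1li2 at -0.57, both at an adjusted p of 0.156.

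**Figure D1:**
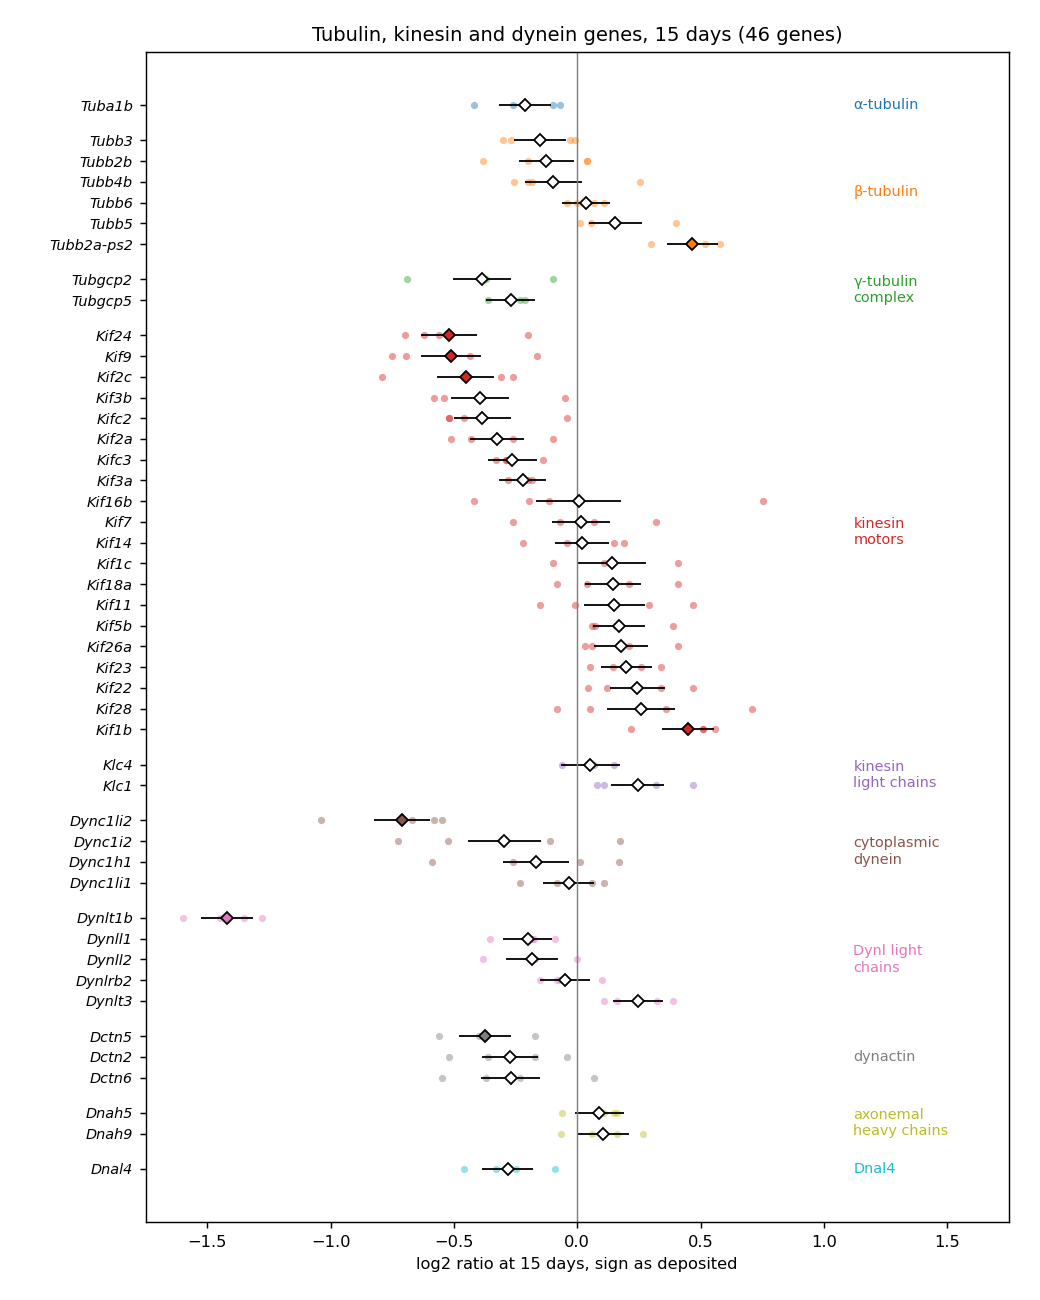
Log2 ratios at 15 days, sign as deposited, of the 46 genes with values, grouped by family. Small points are single arrays, diamonds are means with bars of 1 SE from limma, and filled diamonds are the 8 genes past the adjusted p of 0.05. Dynlt1b stands alone at -1.42, while beta tubulins lie on both sides of 0.

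Tubulins form the microtubule wall. The 1 alpha tubulin, Tuba1b, had values of -0.42, -0.07, -0.10 and -0.26 at 15 days, a mean of -0.21 that missed the threshold (SE 0.11, adjusted p = 0.203). Its 4 arrays were all below 0. Of the 6 beta tubulins, 1 was called. Tubb2a-ps2, which RefSeq lists as a transcribed pseudogene on chromosome 12, had values of 0.52, 0.47, 0.58 and 0.30, a mean of 0.47 (SE 0.10, adjusted p = 0.0225). All 4 arrays were above 0, but the call was lost without replicate 1, 2 or 3 (adjusted p = 0.0679, 0.0688 and 0.0823). Whether its spot also binds transcripts of related beta tubulin genes was not tested.

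The protein-coding beta tubulins showed no call. Tubb3, known from neurons, had a mean of -0.15 (values -0.30, -0.01, -0.27 and -0.03, adjusted p = 0.354). Tubb5, widely expressed, had a mean of 0.15 over 3 probes (values 0.15, 0.40, 0.06 and 0.01, adjusted p = 0.36). Tubb2b lay at -0.13 (SE 0.11), Tubb4b at -0.10 (SE 0.12) and Tubb6 at 0.04 (SE 0.10), each with arrays on both sides of 0. The family's median at 15 days was -0.03, which became 0.00 when the median of neighbouring probes was subtracted, 0.01 without replicate 1 and 0.06 in the joint fit with the 15-day sign turned. Beta tubulins are nearly alike in their coding parts, and their spots may share transcripts.

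The gamma tubulin complex nucleates microtubules, and both measured members were below 0 on all 4 arrays. Tubgcp2 had values of -0.39, -0.37, -0.69 and -0.10, a mean of -0.39 (SE 0.12) that missed the threshold with an adjusted p of 0.0585. Tubgcp5 had values of -0.23, -0.28, -0.36 and -0.21, a mean of -0.27 (SE 0.10, adjusted p = 0.0965). The values of Tubgcp5 were close together, and neither gene was called.

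Of the 20 kinesin motors, 3 were called below 0 and 1 above, beside 7.2% and 4.04% of all genes, and 16 were not called. Their median was 0.02, and this sign turned to -0.02 when neighbouring probes were subtracted and to -0.01 without replicate 1. In the joint fits with the 15-day sign as labelled and turned, the medians were -0.13 and -0.24. Those fits covered only 14 of the 20 motors, so their medians are not of the same genes as the 0.02. Of the 3 called below 0, Kif24 is a centriolar kinesin that takes microtubules apart and restrains the growth of cilia. Its values were -0.70, -0.62, -0.56 and -0.20, a mean of -0.52 (SE 0.11, adjusted p = 0.0228). The lowest 3 arrays lay close together, and replicate 4 was nearest to 0. The call was lost without replicate 1, 2 or 3 (adjusted p = 0.076, 0.0765 and 0.0821).

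Kif9, a kinesin of motile cilia and the sperm tail, had values of -0.17, -0.75, -0.70 and -0.44, a mean of -0.51 (SE 0.12, adjusted p = 0.0292). Its 2 probes differed. The first had values of 0.20, -0.51, -0.56 and -0.19, a mean of -0.27 (SE 0.14, adjusted p = 0.219), and the second -0.53, -0.99, -0.83 and -0.68, a mean of -0.76 (SE 0.12, adjusted p = 0.00373). The second probe alone was past the threshold. The call of the gene was lost without replicate 2, 3 or 4 (adjusted p = 0.104, 0.111 and 0.0646).

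Kif2c, a microtubule depolymerase that corrects attachments at centromeres, had values of -0.26, -0.31, -0.79 and -0.45, a mean of -0.45 (SE 0.12, adjusted p = 0.0368). Replicate 3 lay lowest, and the call was lost when any of the 4 arrays was left out (adjusted p between 0.0578 and 0.13). Kif1b, which carries mitochondria and vesicle precursors, had values of 0.56, 0.51, 0.51 and 0.22, a mean of 0.45 (SE 0.11, adjusted p = 0.0278). Its 4 arrays were all above 0. The call was lost without replicate 1, 2 or 3 (adjusted p = 0.0894, 0.0906 and 0.0945) and when neighbouring probes were subtracted (0.30, adjusted p = 0.0729).

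The promoters of the 3 kinesins called below 0 are shown because these motors lay on the same side of 0, and because RFX factors, which bind a sequence of the form GTTGCC, are known regulators of cilium genes. Each window runs from 250 bases before to 50 bases after the start that RefSeq gives on GRCm38.p6, 5′ to 3′ on the gene's strand. Capitals mark GTTGCC with the 4 letters after it, and CCAAT on either strand.

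Kif9, chr9:110476708-110477007, + strand: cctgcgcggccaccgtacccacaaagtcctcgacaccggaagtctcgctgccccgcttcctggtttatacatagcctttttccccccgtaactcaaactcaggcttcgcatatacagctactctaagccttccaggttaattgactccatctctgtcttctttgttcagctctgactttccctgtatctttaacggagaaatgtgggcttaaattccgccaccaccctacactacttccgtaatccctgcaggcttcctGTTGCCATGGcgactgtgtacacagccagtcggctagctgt
Kif24, chr4:41464799-41465098, - strand: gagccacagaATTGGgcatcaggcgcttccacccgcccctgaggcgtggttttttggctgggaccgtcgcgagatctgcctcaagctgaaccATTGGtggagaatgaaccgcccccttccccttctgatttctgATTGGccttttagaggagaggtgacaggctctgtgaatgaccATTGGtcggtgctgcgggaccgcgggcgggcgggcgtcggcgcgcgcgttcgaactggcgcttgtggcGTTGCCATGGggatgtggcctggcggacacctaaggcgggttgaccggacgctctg
Kif2c, chr4:117178723-117179022, - strand: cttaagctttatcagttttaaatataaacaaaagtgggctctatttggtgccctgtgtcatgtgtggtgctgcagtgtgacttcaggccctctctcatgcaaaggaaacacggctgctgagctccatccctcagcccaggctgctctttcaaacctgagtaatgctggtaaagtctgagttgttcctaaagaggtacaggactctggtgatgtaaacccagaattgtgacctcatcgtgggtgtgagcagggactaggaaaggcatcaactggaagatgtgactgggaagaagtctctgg

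GTTGCC occurred in the windows of Kif9 and Kif24 and not in that of Kif2c. In Kif9 it began at base 10 of the transcript, and in Kif24 at base -6, that is 6 bases before the start. In both it was followed by ATGG, giving GTTGCCATGG, a word that was searched only after these letters had been seen. Of the 47 genes, 35 had a window in the RefSeq table. Searched on both strands, GTTGCC was in 9 of the 35 (25.7%), and in 12.5% of all 32851 windows. The other windows that held it were those of Dync1i2, Dynll1, Dynlrb2, Kif16b, Kif18a, Kif23 and Kif3a, of which none was called. GTTGCCATGG was in 2 of the 35 (5.7%), Kif9 and Kif24, and in 0.6% of all windows. The word was taken from these 2 windows, so its 2 matches were fixed in advance. The 2 shares are therefore no evidence that the word is more frequent among these genes. CCAAT, the NF-Y word, was in 17 of the 35 (48.6%) and 37.4% of all windows, 4 times in Kif24, 2 times in Kif1b and 1 time in Dctn5. TGACGTCA, the word bound by the testis activator CREM, was in the windows of Kif18a and Klc1, 2 of the 35 (5.7%), against 1.8% of all windows. These are matches of letters and no binding was measured. The table has no window for Dynlt1b, Dync1li2 or Tubb2a-ps2.

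Of the motors not called, Kif3b missed the threshold most narrowly. It pairs with Kif3a in the motor that moves cargo to the tip of cilia, and had values of -0.54, -0.58, -0.05 and -0.40, a mean of -0.39 (SE 0.12, adjusted p = 0.0562). Kif3a lay at -0.22 (SE 0.10, adjusted p = 0.153), with all 4 arrays between -0.28 and -0.19. This narrow range is an average of 2 probes that differed more. One had values of -0.26, 0.06, -0.33 and -0.39, and the other -0.30, -0.46, -0.04 and -0.05. Kifc2, a kinesin with its motor at the C terminus, had values of -0.52, -0.46, -0.52 and -0.04, a mean of -0.39 (SE 0.12, adjusted p = 0.0573), and its relative Kifc3 lay between -0.33 and -0.14 (adjusted p = 0.106). Kif2a, a depolymerase related to Kif2c, lay between -0.51 and -0.10 (adjusted p = 0.078). Averaged over probes, all these 5 were below 0 on all 4 arrays.

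Other motors of spindles and cell division, beside Kif2c and Kif2a above, were not called. Kif22, which pushes chromosome arms, had a mean of 0.24 (SE 0.11, adjusted p = 0.167), and Kif23, which acts in the last step of cell division, 0.20 (SE 0.10, adjusted p = 0.215), both above 0 on all 4 arrays. Kif18a, Kif11 and Kif14, which align chromosomes, separate spindle poles and act in cytokinesis, had means of 0.15, 0.15 and 0.02 with arrays on both sides of 0. The transport motor Kif5b had a mean of 0.17 (SE 0.11, adjusted p = 0.302) with all 4 arrays above 0, and Klc1, a light chain of that motor, values of 0.08, 0.11, 0.47 and 0.32 (mean 0.25, SE 0.11, adjusted p = 0.159). The other light chain, Klc4, had 3 values between -0.06 and 0.15. The remaining kinesins, Kif1c, Kif7, Kif16b, Kif26a and Kif28, had means from 0.01 to 0.26.

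Of the 4 chains of cytoplasmic dynein, 1 was called below 0, and the family's median was -0.23. Dync1li2, which ties the motor to adaptors, had values of -0.67, -1.04, -0.58 and -0.55, a mean of -0.71 (SE 0.11, adjusted p = 0.00814). Replicate 2 lay lowest and all 4 arrays were below -0.5. Its paralog Dync1li1, the other light intermediate chain, had values of 0.06, 0.11, -0.23 and -0.08, a mean of -0.04 (SE 0.11, adjusted p = 0.854). No array of Dync1li1 reached the values of Dync1li2. The motor chain Dync1h1 ranged from -0.59 to 0.17 (mean -0.17, adjusted p = 0.426), and the intermediate chain Dync1i2 from -0.73 to 0.18 (mean -0.30, adjusted p = 0.204).

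The light chains named Dynl bind the dynein intermediate chain in 3 kinds, Dynlt (Tctex), Dynll and Dynlrb (roadblock), and 1 of the 5 with 15-day values was called. Dynlt1b, on chromosome 17, had values of -1.35, -1.60, -1.28 and -1.45, a mean of -1.42 (SE 0.10, adjusted p = 0.000584). The 4 arrays differed by little (SD 0.14), and the gene stayed past the threshold with any of the 4 left out. Its relative Dynlt3, on the X chromosome, lay on the other side of 0, with values of 0.39, 0.33, 0.11 and 0.16 (mean 0.25, SE 0.10, adjusted p = 0.138, but 0.0479 in the joint fit of both ages). Mouse chromosome 17 carries 4 copies of Dynlt1 in the RefSeq table, so the single spot named Dynlt1b may report on several of them. A second spot listed under Dynlt1b and other genes was left out.

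The other Dynl chains were not called. Dynll1 had values of -0.09, -0.18, -0.36 and -0.19 (mean -0.20, adjusted p = 0.205), an average of 2 probes on opposite sides of 0. One had values of -0.38, -0.75, -0.73 and -0.39, a mean of -0.56 (SE 0.12, adjusted p = 0.014 among single probes), and the other 0.20, 0.40, 0.02 and 0.02, a mean of 0.16 (SE 0.11, adjusted p = 0.369). The first probe was below the second on every array. Dynll2 lay between -0.38 and 0.00 (mean -0.19, SE 0.11, adjusted p = 0.262), and Dynlrb2 between -0.15 and 0.10 (mean -0.05, SE 0.10).

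**Figure D2:**
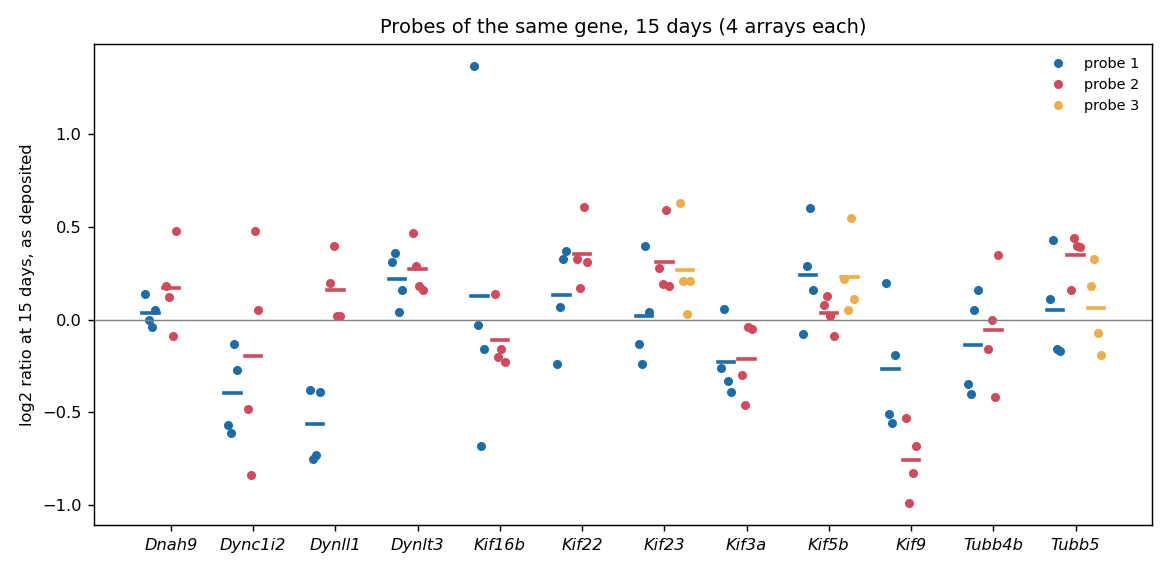
Log2 ratios at 15 days, as deposited, for each probe of the 12 genes with more than 1 probe; points are arrays, short lines are probe means, and colours number the probes of a gene. The probes of Dynll1 lie on opposite sides of 0 (means -0.56 and 0.16), and those of Kif9 differ (-0.27 and -0.76).

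Dynactin links dynein to cargo and keeps it on its track, and its 3 measured subunits all had means below 0, with a median of -0.27. Dctn5, at the pointed end of the complex, had values of -0.37, -0.17, -0.56 and -0.40, a mean of -0.38 (SE 0.11) just past the threshold (adjusted p = 0.0479). The call was lost when any 1 array was left out (adjusted p between 0.0742 and 0.158). Dctn2 had values of -0.36, -0.17, -0.52 and -0.04 (mean -0.27, SE 0.11, adjusted p = 0.135), and Dctn6 -0.37, -0.55, 0.07 and -0.23 (mean -0.27, SE 0.12, adjusted p = 0.161).

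Axonemal dyneins power cilia and sperm tails, and none of the 3 measured was called. The outer arm heavy chains Dnah5 and Dnah9 had means of 0.09 (SE 0.10) and 0.11 (SE 0.10), each with an array below 0. The light chain Dnal4 had values of -0.25, -0.33, -0.46 and -0.09, a mean of -0.28 (SE 0.11, adjusted p = 0.104), below 0 on all 4 arrays.

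Signs were shared across arrays more often than calls were made. Of the 44 genes with a value on all 4 arrays at 15 days, 18 were below 0 on every one (40.9%) and 9 above 0 on every one (20.5%). Over all genes these shares were 23.1% and 14.4%. The 18 included both gamma tubulin complex genes, Tuba1b, Dnal4, Dctn2 and Dctn5, and 8 kinesin motors. The 9 included Tubb5, Klc1, Kif22, Kif23 and Kif5b. These signs are of the average over a gene's probes. Single probes of Dynll1, Kif3a and Kif9 had arrays above 0, and single probes of Tubb5, Kif22, Kif23 and Kif5b had arrays below 0.

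At 12 days, 36 of the 47 genes had enough values of both dye orientations, and limma called 0 of them and 0 of all 10075 features (0%). At an unadjusted p under 0.05 there were 269 features, beside 282 without the dye term and 910 with the arrays not turned by the dyes. With no effect at all, a share of about 0.05 of the 10075 features would be expected there. The 269 and 282 are fewer than that and the 910 are more, and the reason was not tested. The 0 calls therefore do not show that effects were absent at 12 days. Of the 36 genes only Dynlt3 was under 0.05 in the main fit. Its values as deposited were -0.08, 0.04 and 0.11 with knockout in Cy5 and -0.36 and -0.52 with knockout in Cy3. Turned to knockout over wild type they gave an estimate of 0.23 (SE 0.08, unadjusted p = 0.029, adjusted p = 1), with the knockout higher on 4 of 5 arrays. For the next genes, Kif23 lay at 0.21 (SE 0.09, unadjusted p = 0.0522), Tubb2a-ps2 at 0.21 (SE 0.10, unadjusted p = 0.0843) and Kifc3 at -0.19 (SE 0.10, unadjusted p = 0.0966).

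Kifc3 was the 1 gene of 33 with all 5 values in which the knockout was lower on every array, and in none was it higher on every array. Over all genes these shares were 2.71% and 1.91%. Among the genes called at 15 days, beside Tubb2a-ps2 above, Dync1li2 was at 0.06 (SE 0.10), Kif2c at -0.06 (SE 0.09), Kif24 at -0.10 (SE 0.11), Kif9 at -0.14 (SE 0.10) and Dctn5 at -0.10 (SE 0.14), and Kif1b had too few values for a fit. Dynlt1b had values as deposited of -0.65, -0.29 and 0.75 with knockout in Cy5 and -0.03 and 1.30 with knockout in Cy3. The 5 arrays lay on both sides of 0 in both orientations, and the estimate was -0.35 (SE 0.26, adjusted p = 1).

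By family, the 12-day estimates were small. The 6 beta tubulins had a median of 0.07, the 14 kinesin motors tested 0.00, the 3 cytoplasmic dynein chains 0.06, the 5 Dynl chains -0.10 and the 3 dynactin subunits -0.10. Dync1i2 (-0.19, SE 0.12) and Dync1h1 (0.14, SE 0.10) had the smallest p among the dynein chains. Tuba1b (0.01, SE 0.13), Tubgcp2 (0.05, SE 0.09), Tubgcp5 (-0.01, SE 0.12), Klc1 (0.00, SE 0.11) and Dnal4 (-0.05, SE 0.11) lay within 1 SE of 0. Dnah5 and Kif26a had no value at 12 days.

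The difference between the ages was tested in 1 model of all 9 arrays. Since all 15-day arrays had knockout in Cy3, its estimate comes to 12-day replicates 2 and 3 set against the 15-day mean, and the other 12-day arrays enter only the spread. With every ratio read as Cy5 over Cy3, 3 of 35 genes were called, 1 with a higher knockout effect at 15 days and 2 with a lower one. Over all genes 1.64% were called higher (101 of 6144) and 0.635% lower (39). Dynlt1b, at -1.60 to -1.28 on the 15-day arrays and -0.03 and 1.30 on 12-day replicates 2 and 3, differed by 2.06 (SE 0.39, adjusted p = 0.0293). Tubb2a-ps2, at 0.30 to 0.58 against -0.69 and -0.53, differed by -1.08 (SE 0.18, adjusted p = 0.0238). Dynlt3, at 0.11 to 0.39 against -0.36 and -0.52, differed by -0.68 (SE 0.16) with an adjusted p that rounds to 0.05 and lies under it. In each of these 3 genes the 15-day arrays did not overlap the 2 arrays of 12 days. The estimate comes from these same arrays, so this is no separate evidence. Over all genes the 15-day arrays lay entirely below those 2 in 22.9% and entirely above in 14.5%.

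**Figure D3:**
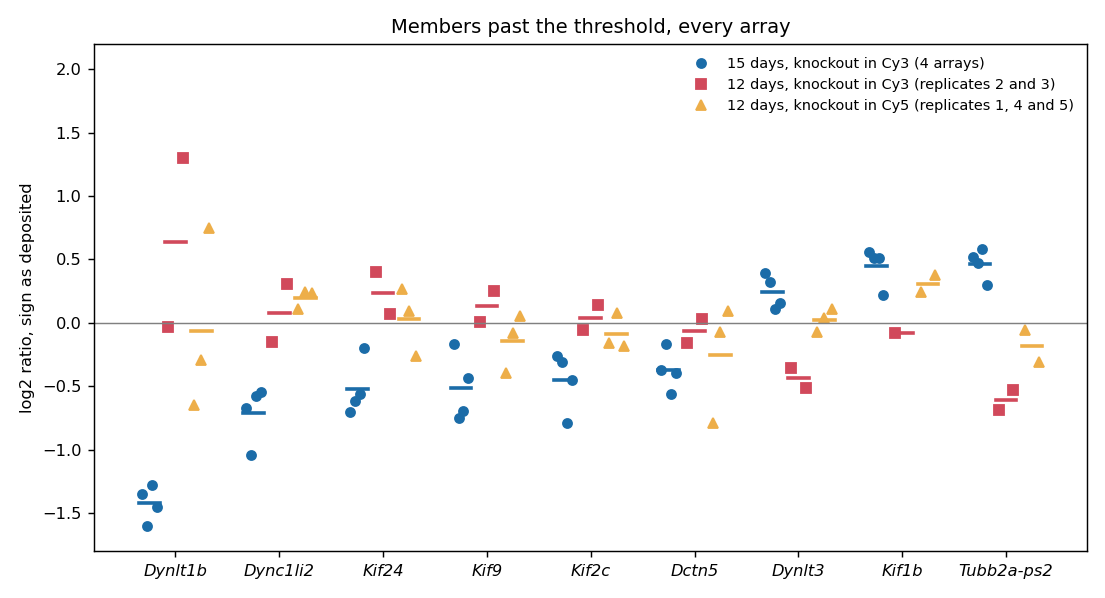
Log2 ratios, sign as deposited, on every array for the 9 genes past the threshold in any comparison. Blue circles are 15 days, red squares 12 days with knockout in Cy3 and yellow triangles 12 days with knockout in Cy5, and short lines are means. The 12-day squares of Tubb2a-ps2 (-0.69 and -0.53) and Dynlt3 (-0.36 and -0.52) lie below 0 and the 15-day circles above it.

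With the 15-day sign turned, 0 of the 35 genes and 0 of all 9851 features (0%) were called by limma, with 650 features and 3 of these genes at an unadjusted p under 0.05. Those 3 were Dync1li2 (-0.63, SE 0.19), Kif2c (-0.41, SE 0.19) and Kifc2 (-0.41, SE 0.18). Dynlt1b then differed by -0.79 (SE 0.39, adjusted p = 0.794), Tubb2a-ps2 by -0.14 and Dynlt3 by -0.19. The 3 calls were thus made under the label reading and not with the 15-day sign turned. A reading of every ratio at both ages as knockout over wild type was not tested for the age difference. With an array left out under that reading, 0 genes were called without 15-day replicate 1, 2 or 3 or without 12-day replicate 3 or 4, 1 without 12-day replicate 2, and 5 without 12-day replicate 5. Without 15-day replicate 1, 2 or 3 the calls over all features also went from 231 to 23, 35 and 10, while Dynlt1b kept a difference of 1.995 to 2.10, Tubb2a-ps2 one of -1.08 to -1.04 and Dynlt3 one of -0.73 to -0.63. Without 12-day replicate 3 the difference of Dynlt1b was 1.39, with an adjusted p of 0.174.

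Set side by side on the arrays of equal dye orientation, 34 genes had values on all 4 arrays at 15 days and on 12-day replicates 2 and 3. The 15-day arrays lay entirely below the 12-day ones in 14 of them (41.2%) and entirely above in 5 (14.7%). Over all genes these shares were 22.9% and 14.5%. By the sign of the means, 16 genes were below 0 at 15 days and above 0 at 12 days, and 10 the reverse. Another 5 were below 0 at both and 0 above 0 at both, and 3 had a mean of exactly 0. The same count over all genes was not made. Over all probes the 15-day arrays correlated below 0 with 12-day replicate 3 (r -0.38 to -0.33) and replicate 2 (-0.25 to -0.11). Opposite signs at the 2 ages are therefore not particular to these genes. The 5 entirely above were Tubb2a-ps2, Dynlt3, Klc1, Kif23 and Kif5b.

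**Figure D4:**
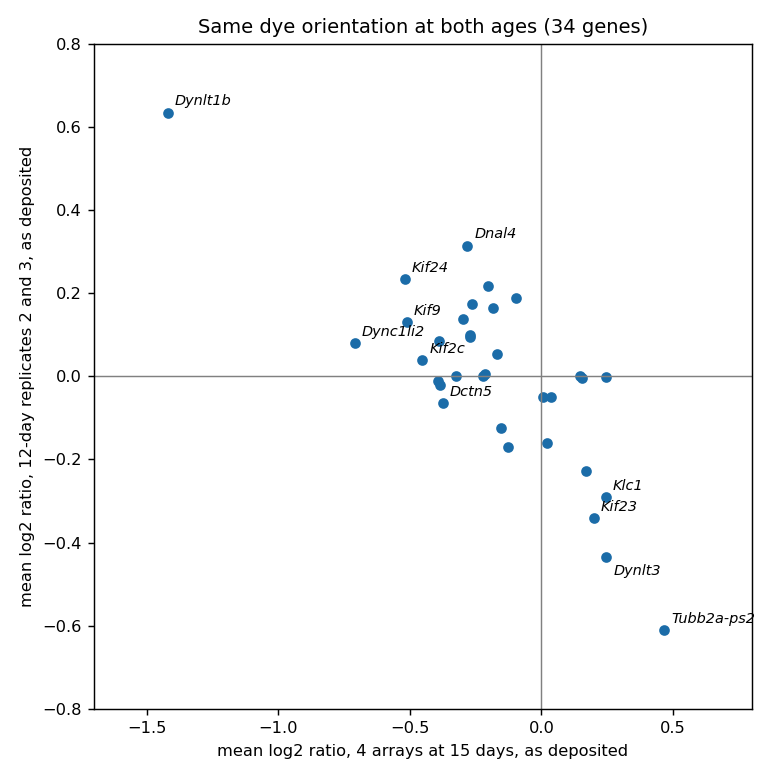
Mean log2 ratio as deposited of the 4 arrays at 15 days (horizontal) against that of 12-day replicates 2 and 3 (vertical), all with knockout in Cy3; each point is 1 of 34 genes. The upper left holds 16 genes and the lower right 10, with Dynlt1b at -1.42 and 0.64. The same count over all genes was not made.

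Other genes of the microtubule pathway were counted from fixed lists, which were chosen with earlier results of these data known. They stand against the same shares of 4.04% above and 7.2% below 0 over all genes at 15 days. Of 11 microtubule nucleation genes, 4 were called below 0 and 0 above. These were Haus5 and Haus4 (-0.52 each, adjusted p = 0.0167 and 0.0448), subunits of the augmin complex that starts new microtubules on old ones, Mzt2 (-0.43, adjusted p = 0.0263), a small part of the gamma tubulin complex, and Cdk5rap2 (-0.45, adjusted p = 0.0274), which anchors that complex at centrosomes. The median of the list was -0.11.

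Of 10 genes that fold or modify tubulin, 3 were called below 0 and 1 above, with a median of -0.21. Ttll5, a tubulin glutamylase, had values of -0.10, -1.02, -0.96 and -0.51 (mean -0.65, adjusted p = 0.029). The folding factor Tbca (-0.52, adjusted p = 0.0292) and the tubulin deglutamylase Agbl5 (-0.42, adjusted p = 0.0434) were also below 0, and Ttll11, another glutamylase, was above it (0.40, adjusted p = 0.0466). Enzymes that add glutamate thus lay on both sides.

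Of 40 listed genes for the intermediate chains, assembly and docking of axonemal dynein, 5 were on the array, and 2 of these were called below 0. Dnaaf2, with values of -0.67, -0.74, -0.76 and -0.58 (mean -0.69, SE 0.10, adjusted p = 0.00497), and Wdr92, with values of -0.62, -0.74, -0.67 and -0.44 (mean -0.62, SE 0.10, adjusted p = 0.00903), are cytoplasmic factors that help fold dynein arms. Ruvbl2 (-0.51, adjusted p = 0.057) and Pih1d1 (-0.28, adjusted p = 0.101) were below 0 on all 4 arrays without a call. The median of the 5 was -0.51, the value of Ruvbl2, while the axonemal heavy chains Dnah5 and Dnah9 lay near 0.1.

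Of 15 dynein regulators and adaptors, 1 was called below 0, Capza1 (-0.45, adjusted p = 0.034), which caps actin and the dynactin filament. Pafah1b1, which activates dynein, had values of 0.71, 0.58, 0.45 and -0.08 (mean 0.41, adjusted p = 0.0745). Of 22 microtubule binding and spindle genes, 1 was called above 0, Clasp2 (0.55, adjusted p = 0.0372), which stabilises growing ends, and of 6 kinesin adaptors 0 by limma (0 at an unadjusted p under 0.05; smallest 0.117, Clstn1). At 12 days limma called 0 of the 66 genes of these lists that could be tested, with 1 at an unadjusted p under 0.05. In the age difference under the label reading, 3 of 5 axonemal assembly genes and 1 of 11 nucleation genes were called. All had a higher knockout effect at 15 days, beside 1.64% of all genes called higher and 0.635% lower. With the 15-day sign turned, limma called 0 of the 64 genes tested, with 3 at an unadjusted p under 0.05.

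Markers of testis cell types moved at 15 days as well, beside 4.04% of all genes called above 0 and 7.2% below. Their lists too were chosen with earlier results of these data known, so they are no independent readout of cell types. Of 18 pachytene spermatocyte markers listed, 5 were on the array, and 4 of these were called below 0 (median -1.56). Among them were Slc2a3, with values between -3.09 and -1.48, and Rsph1, between -2.07 and -1.01. Of 7 spermatogonium markers, 3 were called above 0 (median 0.36), among them Etv5 between 0.85 and 1.96. Of 9 spermatid markers listed, only Txndc2 was on the array, and it was called above 0 (0.81). Its values were 0.29, 1.23 and 0.92 on replicates 2, 3 and 4, with none on replicate 1. A single marker cannot show whether spermatids were present. Of 6 Sertoli cell markers 0 were called by limma (0 at an unadjusted p under 0.05; smallest 0.055, Wt1), of 5 Leydig cell markers 1 above 0, of 7 peritubular markers 1 above and 1 below, and of 4 markers of macrophages, blood and endothelium 1 above and 1 below. At 12 days limma called 0 of 32 markers, with 0 at an unadjusted p under 0.05. Ratios hold no level, so which markers were absent cannot be said. The part of cell composition in the values of the tubulin, kinesin and dynein genes was not tested.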

How the data were processed

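The authors deposited log ratios of 9 2-colour arrays, taken here as log2; log base, background correction and direction were not given in the sources used here. Per the series' design text, arrays were scanned on a GenePix 4000A scanner, read and flagged with GenePix 3.0, centred on the median, and tested with SAM. Each column's median was 0. Probes with several (213) or no (6311) genes were kept as features but named no gene. The 47 genes matched by Entrez ID in RefSeq (GRCm38.p6; 98.9% of 1-gene probes matched), and probes of a gene were averaged. R 4.3.3 with limma 3.58.1 (linear models with empirical Bayes, two-sided; calls at a Benjamini-Hochberg adjusted p under 0.05 over all features) tested means at 15 days (at least 3 values), the knockout coefficient beside a dye intercept at 12 days (at least 4 values) and the age difference with a shared dye term. The tests were checked on simulated data in which few features changed. At 15 days 76 of 100 changes of 1 and 15 of 100 changes of 0.5 were called. At 12 days these counts were 71 and 16, and in the age difference 42 and 5. A gene that was not called may therefore still have changed.

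Each array counted as 1 replicate; whether the 12-day arrays shared RNA is not given, so p-values may measure partly technical spread. The genes named were those past the threshold in any comparison, up to 3 per family of smallest p at 15 days and 2 at 12 days, and up to 4 per list; others are summarised or named for their role. Members and lists were chosen with earlier results of these data known. Alternatives covered scaling, quantile normalization, neighbouring probes (100 on each side), missing values, robust empirical Bayes, single probes, the threshold, dye terms, the range of title numbers as a block, direction and each array left out. Centring again after averaging was chosen after seeing the data.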

Additional observations from a re-analysis of the deposited data

Results flagged for a closer look

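Of 80 series of 4 or 5 arrays of these genes, 5 had 1 array far from the others by Dixon's test, which flags about 1 series in 20 by chance. At 15 days this was replicate 4 for Tubb4b (0.255, with the other 3 arrays below 0), for Kif1b (0.22) and for Kifc2 (-0.04). At 12 days, read as knockout over wild type, it was replicate 3 for Dync1li2 (-0.31) and replicate 1 for Dctn5 (-0.79).

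The knockout effect differed between the ages under the label reading, by the joint limma model, for Dynlt1b (2.06), Dynlt3 (-0.68) and Tubb2a-ps2 (-1.08). With the 15-day sign turned none of these 3 was called (-0.79, -0.19 and -0.14).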

How the results depend on the processing

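The 8 calls at 15 days became 5 when both ages were fitted with a shared dye term (4 of the 8, and Dynlt3), 0 with the 15-day sign turned in it, 2 at the stricter threshold of adjusted p under 0.01 and 1.5-fold, and 2 to 6 with an array left out. The 2 above 0 became 1 with neighbouring probes subtracted, 0 in the turned joint fit, 0 at the stricter threshold and 0 to 2 with an array left out. The 6 below 0 became 10 with neighbouring probes subtracted, 3 and 0 in the joint fits, 2 at the stricter threshold and 2 to 4 with an array left out. The 3 age differences became 5 with arrays scaled, 8 with quantile normalization, 0 at the stricter threshold, 0 with the 15-day sign turned and 0 to 5 with an array left out. Over all features, calls below 0 at 15 days went from 655 to 964 with neighbouring probes subtracted. Age differences over all features went from 231 to 554 with arrays scaled and to 799 with quantile normalization. The cause of these changes was not tested. The count at 12 days was 0 in all 16 alternatives run, including the range of the array title numbers as a block, with which Dynlt1b lay at -0.44 and Tubb2a-ps2 at 0.17. Quantile normalization moved the share of calls above 0 at 15 days from 56.8% to 45.4% over all features.

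Estimates at 12 days that changed sign without turning by the dyes were Dynlt1b 0.22, Dynlt3 -0.16, Tubb2a-ps2 -0.40 and Kif24 0.11. With an array left out, the 12-day estimate of Dync1li2 ranged from -0.057 (without replicate 2) to 0.17 and that of Dctn5 from -0.18 to 0.038 (without replicate 1). With the 15-day sign turned, age differences changed sign for Dynlt1b (-0.79), Dync1li2 (-0.63), Dctn5 (-0.44), Kif24 (-0.29), Kif2c (-0.41) and Kif9 (-0.38).

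No paired analysis was possible because the replicate numbers follow the order of deposit, and each array already sets 1 knockout against 1 wild-type sample. Signal over background is unknown, since no scanner intensities were used here.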
